A study of Mus musculus with 18 samples.

Results

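Macrophages make superoxide with the phagocyte NADPH oxidase, and the mRNAs of 7 NADPH oxidase genes (Cybb, Cyba, Ncf1, Ncf4, Rac1, Rac2 and Nox1) were followed here together with Sod2, which encodes the superoxide dismutase of mitochondria. The 8 genes were taken by their symbols from 22852 symbols in the count data, all 8 were found in every sample, and all 8 were among the 11305 genes that passed the expression filter. The rule used the symbols alone. The samples were BMDMs, macrophages grown from the femoral and tibial bone marrow of female C57BL/6 mice in medium conditioned by L929 cells, with 3 biological replicates in each of 6 groups and 18 samples in all. Unstimulated BMDMs (Unstim) received nothing. LPS-primed BMDMs (LPS100) were kept for 24 h with LPS at 100 ng/ml. LPS-tolerant BMDMs (Tol) had the same priming and then, after that medium was removed, 3 h of LPS at 10 ng/ml in fresh medium. Carboplatin, a platinum drug that crosslinks DNA, was given at 25 µM from 1 h before priming to the groups LPS100-Carbo25 and Tol-Carbo25. LPS-stimulated BMDMs (LPS10Control) received a single dose of LPS at 10 ng/ml without priming, with a time of 3 h read from the scheme of the study. The single dose and the priming thus differ in both dose and time, whose effects cannot be told apart. Age and genetic change were not given in the sources used here, and no group carried carboplatin without LPS.

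The oxidase is assembled from parts that are kept apart in resting cells. The membrane part, flavocytochrome b558, is a pair of the catalytic subunit gp91phox, encoded by Cybb, and p22phox, encoded by Cyba. On activation the cytosolic proteins p47phox (Ncf1) and p40phox (Ncf4) move to the membrane with a Rac GTPase, and electrons from NADPH are passed to oxygen to give superoxide. NOX1 is a related catalytic subunit that is best known from the colon epithelium. SOD2 turns superoxide into hydrogen peroxide inside mitochondria, so it handles superoxide of another source than the phagosome.

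The samples held from 6869667 to 14708099 read pairs assigned to genes (median 8986463). All 10 macrophage markers (among them Adgre1, Csf1r and Spi1) had a mean above 10 counts in each of the 6 groups. Of 12 neutrophil markers, Ly6g, Mpo, Retnlg and Cxcr2 had 0 counts in all 18 samples, while the sum of the list ranged from 44.9 to 77.0 normalized counts in unstimulated, from 99.6 to 169 in LPS-stimulated and from 268 to 3124 in the 4 primed or tolerant groups. Mmp8 and S100a8 were the 2 genes of that list with means above 10 counts, and Mmp8 alone had 30.6 to 61.5 normalized counts in unstimulated samples and up to 2581 in primed or tolerant ones. The part of these genes in the results below was not tested. The sum of the macrophage markers ranged from 149747 to 310548. T and NK cell markers summed to at most 51.3, fibroblast markers to at most 88.5, mast cell and basophil markers to at most 40.1, B cell markers to at most 17.3, dendritic cell markers to at most 13.1 and erythroid markers to at most 6.91. In bulk RNA, a smaller share of cells that express a gene and less of its RNA per cell cannot be told apart.

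LPS moved the 8 genes in different ways. Sod2 rose 25.7-fold after the single dose and 27.2-fold after priming, and the catalytic subunit Cybb rose 3.12- and 4.16-fold. Ncf4 rose 1.66- and 1.91-fold, Rac2 rose 1.60-fold after priming, and the groups of Rac1 overlapped. Nox1 rose 10.1-fold after the single dose, from very few reads, and was at 0 to 2 counts in all 12 primed or tolerant samples. None of the 8 genes passed the test for the LPS dose that followed priming or for carboplatin.

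**Figure D1:**
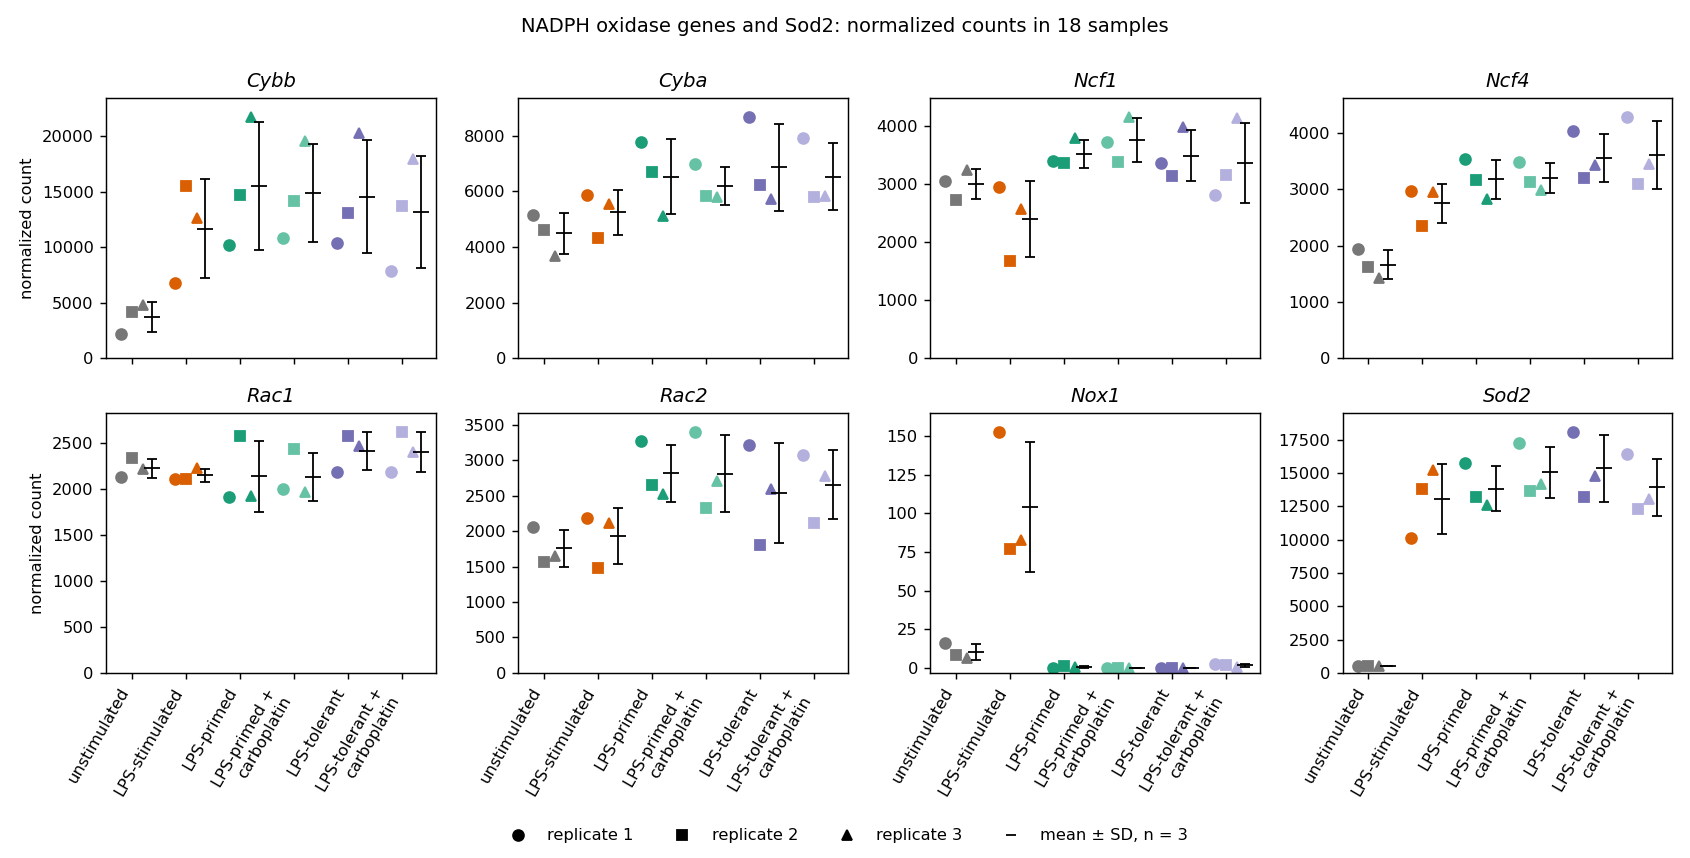
Normalized counts (counts scaled to the mean TMM-adjusted library size, linear axes) of the 8 genes in each of the 18 samples, by group. Symbols mark replicates 1 to 3 and the bar beside them the mean ± SD of 3 samples. Sod2 lay between 493 and 531 in unstimulated samples and between 10157 and 18094 in all others, and Nox1 stood out in LPS-stimulated samples.

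Cybb lies on chromosome X at 9301491 to 9354010 of GRCm39, on the minus strand, with 13 exons in its canonical transcript. Its normalized counts in replicates 1, 2 and 3 were 2197, 4180.0 and 4832 in unstimulated BMDMs. After the single dose of LPS they were 6793, 15507 and 12682, and after priming they were 10241, 14733 and 21692. Every sample given LPS was higher than every unstimulated one. LPS-tolerant samples had 10378, 13045 and 20264 normalized counts. With carboplatin, the primed samples had 10838, 14182 and 19603, and the tolerant samples had 7888, 13736 and 17923. The 5 groups with LPS overlapped one another, with means from 11661 to 15555 and SDs from 4423 to 5770. Against unstimulated cells, the log2FC of Cybb was 1.64 (SE 0.39, adjusted p = 0.00229) after the single dose and 2.06 (SE 0.40, adjusted p = 0.000947) after priming. These comparisons share the unstimulated samples.

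The promoter sequences of Cybb, Nox1 and Sod2 are shown because these are the members with the largest changes in mRNA. They are the 250 bases before the RefSeq start of each gene, 5′ to 3′ on the strand of the gene, in build GRCm38.p6, which is not the build of the counts. Cybb stands at chrX:9469325-9469574 on the minus strand, Nox1 at chrX:134111855-134112104 on the minus strand and Sod2 at chr17:13007589-13007838 on the plus strand. Capitals mark matches to an NF-κB motif, to GAGGAA (the core bound by PU.1, a macrophage factor), to TGANTCA (AP-1) or to GAAANNGAAA (an interferon response element), each searched on both strands.
Cybb: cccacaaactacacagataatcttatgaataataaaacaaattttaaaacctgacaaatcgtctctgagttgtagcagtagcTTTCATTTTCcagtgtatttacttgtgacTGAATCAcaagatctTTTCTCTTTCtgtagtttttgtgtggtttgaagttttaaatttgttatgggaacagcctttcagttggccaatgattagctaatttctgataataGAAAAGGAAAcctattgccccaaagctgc
Nox1: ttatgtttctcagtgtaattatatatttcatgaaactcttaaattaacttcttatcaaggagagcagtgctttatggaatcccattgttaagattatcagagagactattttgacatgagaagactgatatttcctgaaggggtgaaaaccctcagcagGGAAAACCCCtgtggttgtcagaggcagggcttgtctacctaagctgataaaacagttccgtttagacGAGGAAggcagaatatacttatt
Sod2: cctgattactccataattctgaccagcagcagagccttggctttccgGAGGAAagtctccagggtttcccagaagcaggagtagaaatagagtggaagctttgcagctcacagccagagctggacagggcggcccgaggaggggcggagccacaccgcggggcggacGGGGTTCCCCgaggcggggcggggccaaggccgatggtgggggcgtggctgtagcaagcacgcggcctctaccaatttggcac

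The 3 windows differed in their matches. Cybb held 3 matches to GAAANNGAAA, counted over both strands, and 1 to TGANTCA, and no match to the NF-κB motif. Nox1 held an NF-κB match on the minus strand, 91 to 82 bases before the start, and a GAGGAA match. Sod2 held an NF-κB match that reads on both strands, 83 to 74 bases before the start, a GAGGAA match 203 to 198 bases before it, and 4 copies of GGGCGG, left in lower case. No match overlapped a match to another motif. Of 32851 promoters of the same table, searched over 300 bases each, 8.5% held the NF-κB motif, 28.3% GAGGAA, 7.8% TGANTCA, 3.4% GAAANNGAAA and 35.7% GGGCGG. A match is a run of letters and no test of binding. Cybb had a further GAGGAA match on the minus strand 10 to 15 bases after its start. Of the 8 members, 5 had an entry in the table: the window of Ncf1 held GAAANNGAAA 82 to 73 bases before the start, and that of Cyba held none of the 4 motifs marked in capitals. Ncf4, Rac1 and Rac2 had none.

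Cyba (chromosome 8, 123150422 to 123159706, minus strand) encodes the partner that stabilizes gp91phox. Its normalized counts were 5148, 4631 and 3683 in unstimulated BMDMs and 7785, 6691 and 5107 after priming. The ranges of these groups overlapped only between 5107 and 5148. The log2FC was 0.54 (SE 0.20) and did not pass edgeR's test on all samples without the block (adjusted p = 0.0577). It passed in a fit that blocked on replicate number (adjusted p = 0.0018), in DESeq2 (adjusted p = 0.0448), and in edgeR without Unstim replicate 1 (adjusted p = 0.0469) or LPS100 replicate 3 (adjusted p = 0.0275). LPS-stimulated samples had 5879, 4329 and 5535 normalized counts, a log2FC of 0.23 (SE 0.20, adjusted p = 0.363) against unstimulated cells. Per length, Cyba was the most abundant of the 8 mRNAs in every group, with means from 608 to 931 CPM (counts scaled to library size) per kb of exon. The length-scaled ratio of Cybb to Cyba within a sample ranged from 0.071 to 0.219 in unstimulated samples and from 0.166 to 0.708 in all samples with LPS.

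**Figure D2:**
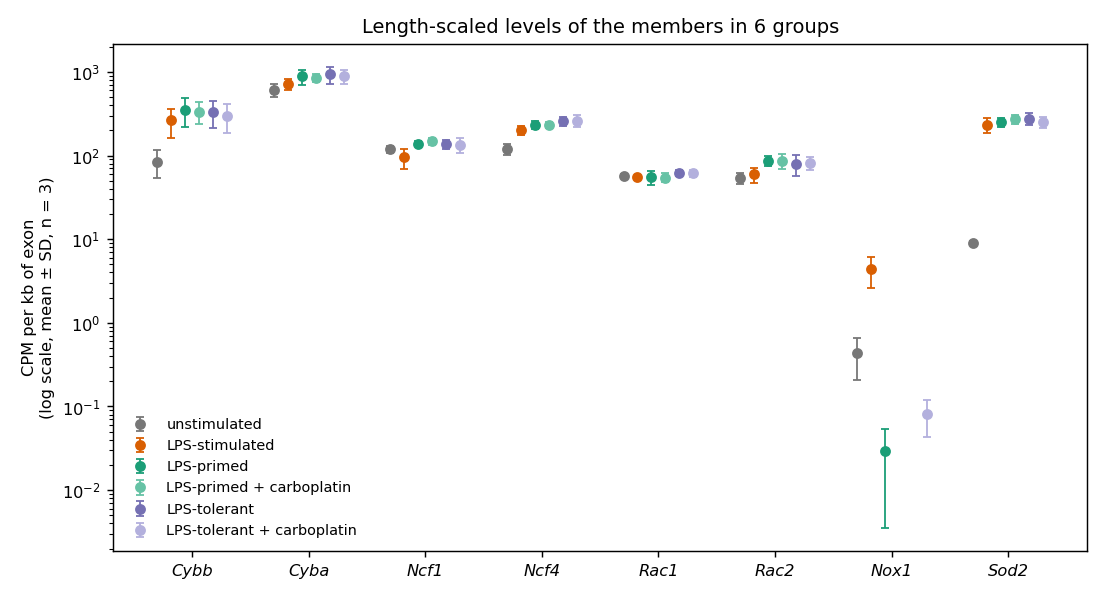
Mean levels of the 8 genes in CPM per kb of the canonical transcript's exons (log axis), with SD over 3 samples, by group. Cyba was highest in each group. Sod2 went from the lowest level but that of Nox1 in unstimulated cells (9.12) to 235 or more in each group with LPS. A mean of 0 (Nox1 in LPS-tolerant and in LPS-primed cells with carboplatin) is not drawn.

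Ncf1 encodes p47phox, the organizer that carries the other cytosolic subunits to the membrane. It lies on chromosome 5 at 134248907 to 134258479, on the minus strand. Unstimulated samples had 3062, 2719 and 3237 normalized counts, primed samples 3402, 3365 and 3792, and LPS-stimulated samples 2954, 1680 and 2577. The primed samples did not overlap the unstimulated ones, yet the log2FC of 0.23 (SE 0.19, adjusted p = 0.423) did not pass the test. After the single dose, the log2FC was -0.32 (SE 0.19, adjusted p = 0.159). The replicate block made this a call (adjusted p = 0.0394). Replicate 2 of that group was the lowest of all 18 samples for Ncf1, and without it the log2FC was -0.12, while without replicate 1 of that group the call passed (log2FC -0.50, adjusted p = 0.0444). LPS-tolerant samples had 3360.5, 3134 and 3982 normalized counts, all above the 3 LPS-stimulated ones, with a log2FC of 0.54 between these groups (SE 0.19, adjusted p = 0.0333). That call was lost in 4 of the 6 fits that left out 1 of these samples, without Tol replicates 1 or 3 or LPS10Control replicates 2 or 3, and the lowest log2FC among the 6 fits was 0.34. With the replicate block and all samples the call was kept (adjusted p = 0.00296).

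Ncf4 encodes p40phox, which binds a lipid of the phagosome membrane. It lies on chromosome 15 at 78128982 to 78146784, on the plus strand. Its normalized counts were 1932, 1625 and 1424 in unstimulated samples, 2964, 2356 and 2943 after the single dose and 3532, 3167 and 2836 after priming. Neither group with LPS overlapped the unstimulated one. The log2FC was 0.73 (SE 0.16, adjusted p = 0.00106) after the single dose and 0.94 (SE 0.16, adjusted p = 0.00029) after priming. LPS-tolerant samples, at 4034, 3207 and 3429, lay above all LPS-stimulated ones with a log2FC of 0.37 (SE 0.16, adjusted p = 0.0811), which passed with the replicate block (adjusted p = 0.00814).

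The 2 Rac GTPases, either of which can switch the oxidase on, differed. Rac1, the ubiquitous form, lies on chromosome 5 at 143489389 to 143514493, on the minus strand, and ranged over all 18 samples only from 1904 to 2614 normalized counts. Its log2FC was -0.06 after priming (95% interval -0.35 to 0.23) and -0.05 after the single dose (95% interval -0.34 to 0.24). Rac2, the form of blood cells, lies on chromosome 15 at 78443367 to 78457429, on the minus strand. Rac2 had 2057, 1569.5 and 1648 normalized counts in unstimulated samples and 3276, 2657 and 2516 in primed ones, with no overlap. For priming, the log2FC was 0.68 (SE 0.22, adjusted p = 0.0308). This call was lost without Unstim replicates 2 or 3 or LPS100 replicate 1, and with library size as the only scaling. With the replicate block it was kept (adjusted p = 0.000143). LPS-stimulated samples had 2189, 1476 and 2119.7 normalized counts, within reach of unstimulated ones (log2FC 0.13, SE 0.22, adjusted p = 0.639). Within a sample, the length-scaled ratio of Rac2 to Rac1 was 0.808 to 1.16 in unstimulated and 1.24 to 2.07 in primed samples.

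Rac1 shares 2682 of its 4781 exon bases with Daglb, a gene on the opposite strand that had 100 to 1601 counts per sample. The libraries were stranded, but whether the counting used strand is not given in the sources used here, so reads of the shared part are uncertain. Smaller overlaps on the opposite strand were found for Nox1 with Cstf2 (564 bases, 58 to 448 counts), Ncf1 with Gtf2ird2 (574 bases, 18 to 83 counts), Cybb with Xk (304 bases, 0 to 16 counts) and Cyba with Il17c (423 bases, 0 to 1 counts).

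Nox1, the other catalytic subunit, also on chromosome X (132987170 to 133122705, minus strand), was read from raw counts because they were so few. Unstimulated samples had 17, 10 and 7 counts, and LPS-stimulated samples had 128, 111 and 84. Primed samples had 0, 1 and 1 counts, and primed samples with carboplatin had 0 in all 3. LPS-tolerant samples had 0 in all 3, and tolerant samples with carboplatin had 2, 2 and 1. The 3 LPS-stimulated samples thus held nearly all reads of this gene. Over the group, 323 counts stood against 34 in unstimulated samples, a ratio of 9.70 after scaling (95% counting interval 6.80 to 14.2), and the fitted log2FC was 3.33 (SE 0.49, adjusted p = 8.71e-05). Against a floor of 3 counts per library, Nox1 was at least 3.28-fold lower in primed than in unstimulated cells (adjusted p = 0.00364) and, in LPS-tolerant cells, at least 33.0-fold lower than after the single dose (adjusted p = 3.19e-06). At its highest, Nox1 reached 4.36 ± 1.77 CPM per kb (mean ± SD, n = 3), where Cybb in the same samples had 263 ± 100.4. The partner genes of NOX1 were scarce too: the organizer Noxo1 had 3 to 23 counts per sample in all groups, and the activator Noxa1 had 0 counts in all 18 samples.

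Sod2 lies on chromosome 17 at 13224095 to 13259591, on the plus strand, and had the largest change of the 8 genes in each of the comparisons of LPS with unstimulated cells. Its normalized counts were 531, 501 and 493 in unstimulated samples. They were 10157, 13832 and 15248 after the single dose, 15759, 13199 and 12584 after priming, and 18094, 13186 and 14806 in LPS-tolerant samples. With carboplatin, primed samples had 17272, 13696.5 and 14188, and tolerant samples had 16403, 12326 and 13046. The lowest sample with LPS was far above the highest without it, and the 5 groups with LPS overlapped one another. The log2FC against unstimulated cells was 4.69 (SE 0.20, adjusted p = 2.61e-11) after the single dose and 4.77 (SE 0.20, adjusted p = 3.11e-11) after priming, or 25.7- and 27.2-fold. Per length, Sod2 was below all phagocyte oxidase subunits in unstimulated cells, at 9.12 ± 0.36 CPM per kb, and at 249 ± 30.2 after priming it was near Ncf4 (230.3 ± 25.2).

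Sod1, the cytosolic superoxide dismutase, did not follow Sod2. It had 3839, 4329 and 3805 normalized counts in unstimulated, 3798, 2743 and 2816 in LPS-stimulated and 2334, 1562 and 1668 in primed samples. Sod1 fell with priming, by a log2FC of -1.11 (SE 0.22, adjusted p = 0.00113), and the single dose gave -0.36 (adjusted p = 0.18; 0.015 with the replicate block). The length-scaled ratio of Sod2 to Sod1 within a sample was 0.103 to 0.123 in unstimulated cells, 2.38 to 4.81 after the single dose and 6.00 to 7.51 after priming. It lay between 6.24 and 6.62 in LPS-tolerant cells, between 5.41 and 5.77 in primed cells with carboplatin and between 4.12 and 5.61 in tolerant cells with carboplatin. By the exon lengths of the canonical transcripts, the order of these 2 mRNAs was thus turned in all 15 samples with LPS. Whether the ratio lies above or below 1 depends on the lengths taken, while its change between groups does not.

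**Figure D3:**
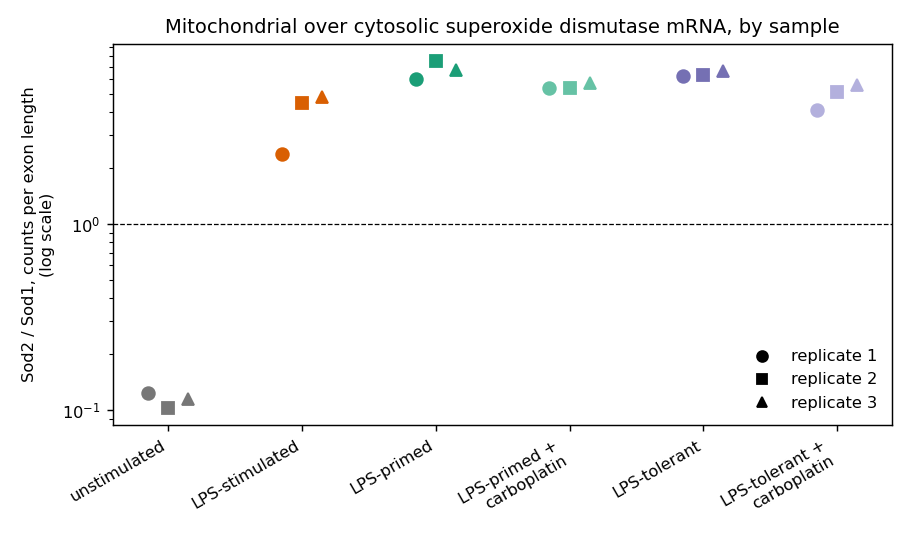
Ratio of Sod2 to Sod1 in each sample, each as counts per base of the canonical transcript's exons (log axis), with replicates 1 to 3 as symbols. The dashed line marks equal levels by these lengths, and its place depends on them. The 3 unstimulated samples lie at 0.103 to 0.123 and the 15 samples with LPS at 2.38 or more.

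In counts of calls, 4 of the 8 genes were higher (Cybb, Ncf4, Rac2, Sod2) and 1 was lower (Nox1) in LPS-primed than in unstimulated BMDMs. Of all tested genes, 12.1% were called higher and 13.1% lower in that comparison. With the replicate block, Cyba joined the higher genes, and of all genes 18.9% were then called higher and 19.8% lower. The median log2FC was 0.61 over the 8 members and -0.02 over all tested genes. At the limits of the study, an absolute log2FC above 2 with an adjusted p under 0.05, 3 members (Cybb, Nox1, Sod2) were called beside 7.47% of all genes. Scaling by library size alone moved the median of all genes to -0.26 and the calls over all genes from 1370 higher and 1477 lower to 932 and 2598.

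In LPS-stimulated against unstimulated BMDMs, 4 of the 8 genes were higher (Cybb, Ncf4, Nox1, Sod2) and 0 lower, beside 24.3% and 26.9% of all genes. The same 4 were the members with an unadjusted p under 0.05 in edgeR, DESeq2 and limma-voom. With the block, Ncf1 was also called, as lower, and 29.5% of all genes were called higher and 33.8% lower. The median log2FC was 0.48 over the members and -0.09 over all genes. At the limits of the study, 2 members (Nox1, Sod2) were called beside 12.0% of all genes. With library size as the only scaling, which moved the median of all genes to -0.43 and the calls from 2749 higher and 3040 lower to 1847 and 4636 over all genes, Ncf1 (adjusted p = 0.0094) and Rac1 (adjusted p = 0.0282) were called lower.

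**Figure D4:**
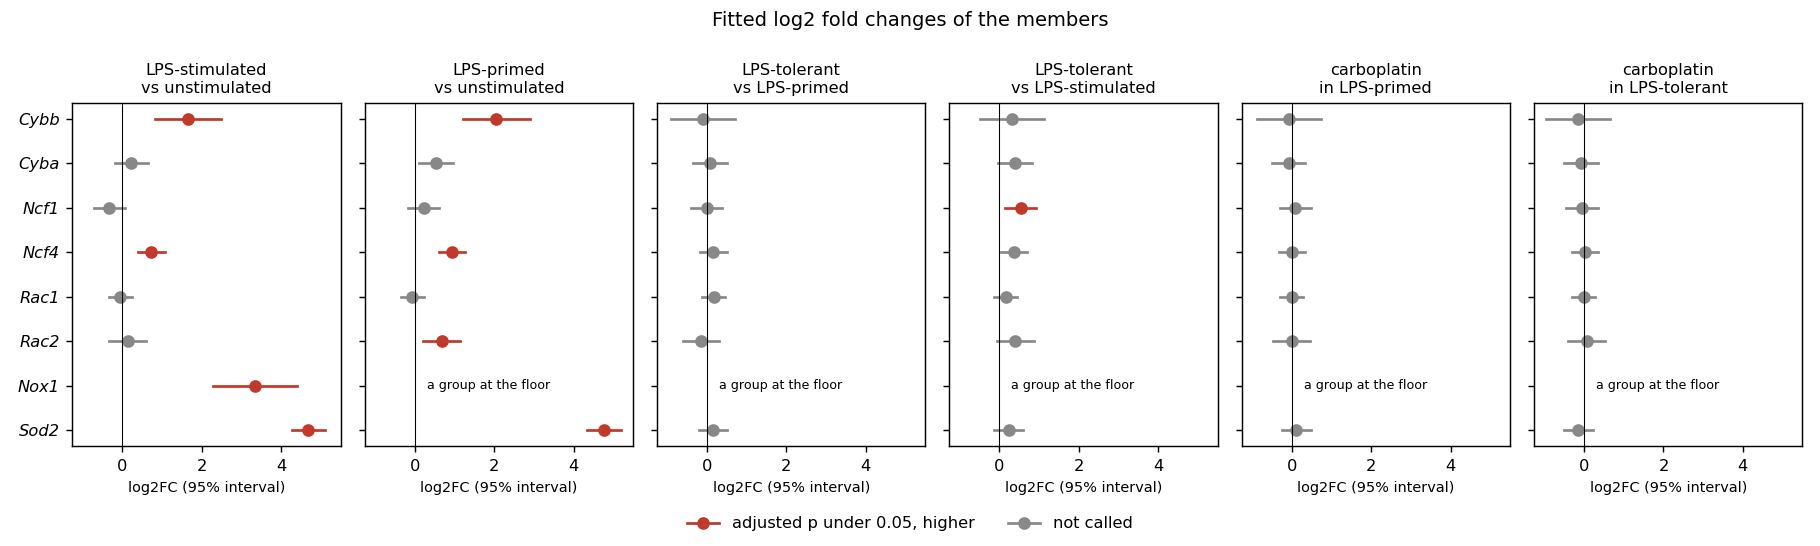
Fitted log2FC of the 8 genes with 95% intervals in 6 comparisons, coloured by the call at an adjusted p under 0.05. Nox1 is drawn only where neither group was at the floor of 3 counts. Sod2 lies near 4.7 in both comparisons with unstimulated cells, and in the panels of the dose after priming and of carboplatin all drawn intervals span 0.

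The LPS dose that follows priming was examined by comparing LPS-tolerant with LPS-primed BMDMs, which had the priming in common. The tolerant cells also had the change of medium and a longer culture. No group had these without the dose, so their effects cannot be told apart. None of the 8 genes passed edgeR's test, and 0 had an unadjusted p under 0.05 in edgeR, DESeq2 or limma-voom. Of all genes, 3.60% were called higher and 2.71% lower, and 0.681% passed the limits of the study. The log2FC of Sod2 was 0.15 (95% interval -0.21 to 0.51), that of Cybb was -0.10 (95% interval -0.90 to 0.71), and that of Ncf4 was 0.16 (95% interval -0.17 to 0.49). For Cyba, Ncf1, Rac1 and Rac2 the log2FC lay between -0.15 and 0.17. Nox1 was at or under the floor of 3 counts in both groups, so that no fold is given. The interval of Cybb was the widest of these 3 and, in this fit without the block, does not exclude a fall of 0.90 or a rise of 0.71 on the log2 scale. With the replicate block its log2FC was -0.08 with a smaller SE of 0.15 (adjusted p = 0.759).

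In LPS-tolerant against LPS-stimulated BMDMs, Ncf1 was called higher and Nox1 lower, beside 16.2% and 18.3% of all genes. At the limits of the study, 1 member (Nox1) was called beside 8.04% of all genes. Pairing by replicate number changed this comparison most. With the block, Cyba (log2FC 0.37, adjusted p = 0.0179), Ncf4 (0.36, adjusted p = 0.00814) and Rac2 (0.38, adjusted p = 0.0121) were called higher as well, making 5 members in all, while 22.9% of all genes were called higher and 24.7% lower. The ranges of Cybb and Sod2 overlapped in this comparison, with a log2FC of 0.32 (95% interval -0.49 to 1.13) and 0.23 (95% interval -0.13 to 0.59). With the block Cybb had 0.33 (SE 0.15, adjusted p = 0.0759).

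The 2 responses to LPS at 10 ng/ml for 3 h, with and without priming, were compared as a difference of differences. The response after priming includes the change of medium named above. Of the members, 3 had a negative difference (Sod2, Cybb and Nox1) and 0 a positive one, beside 13.3% and 10.5% of all genes. The sign alone does not give the size of a response, since a positive difference can be a larger rise or a smaller fall. For Sod2 the difference of the log2 fold changes was -4.54 (SE 0.25, adjusted p = 2.27e-09), which is the 4.69 of the first exposure against the 0.15 after priming. For Cybb it was -1.74 (SE 0.55, adjusted p = 0.0281). In this contrast the level reached differs from the response: the Sod2 and Cybb mRNAs were already high in primed samples, and the 3 h dose ended at overlapping levels in both states. For Nox1 the adjusted p was 0.0317, and its fitted size is not given because primed and tolerant samples were at the floor. It was lost without LPS100 replicates 2 or 3 or Tol replicates 2 or 3, with adjusted p up to 0.113. Ncf4 had a difference of -0.57 (SE 0.22, adjusted p = 0.0776) that passed with the block (adjusted p = 0.00532), and with the block 19.0% of all genes were called lower and 17.2% higher. The call of Cybb was lost in 6 of 12 fits that left out a sample (without Unstim 1, LPS100 3, Tol 1, Tol 2, LPS10Control 2 or LPS10Control 3, with adjusted p up to 0.0858) and with library size alone (adjusted p = 0.0605). With the block it was 3.94e-06. Scaling by library size alone also moved the median difference of all genes from 0.06 to 0.30. The calls over all genes went from 1190 (positive) and 1501 (negative) to 1862 and 1078.

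Carboplatin moved none of the 8 genes past edgeR's test in either state. In LPS-primed BMDMs, 0 members had an unadjusted p under 0.05 by edgeR, DESeq2 or limma-voom, and 0% of all genes were called higher and 0.372% lower. In LPS-tolerant BMDMs, the 1 member with an unadjusted p under 0.05 by each tool was Nox1, at 0 counts without and 1 or 2 counts with the drug, and 0.0177% of all genes were called higher and 0.407% lower. At the wider limits of the study for carboplatin, an absolute log2FC above 2 with an adjusted p under 0.25, 0 members were called in both states beside 0.265% and 0.389% of all genes. The log2FC of Sod2 was 0.12 (95% interval -0.24 to 0.48) in primed and -0.14 (95% interval -0.50 to 0.22) in tolerant cells. That of Cybb was -0.06 (95% interval -0.87 to 0.74) and -0.14 (95% interval -0.95 to 0.67). With the replicate block Cybb had -0.04 (SE 0.15, adjusted p = 0.936) in primed and -0.17 (SE 0.15, adjusted p = 0.7) in tolerant cells. The narrowest intervals were those of Rac1, from -0.29 to 0.29 in both states. The difference between the carboplatin effects in both states was called for 0 members and for 0% of all genes in either direction, and Nox1 was again the 1 member with an unadjusted p under 0.05 by each tool.

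Within groups, the members followed the replicate number of the labels in opposite ways. Cybb was lowest in replicate 1 in 6 of 6 groups and highest in replicate 3 in 5 of 6, and its highest sample was 1.81 to 2.28 times its lowest within a group. Cyba, Ncf4 and Rac2 were instead highest in replicate 1 in 6 of 6 groups. Rac1 was lowest in replicate 1 in 5 of 6 groups. Of the variation of log2 CPM within groups, 88.9% went with the replicate number for Cybb, 81.9% for Rac2, 72.3% for Cyba and 70.2% for Ncf4, but 20.2% for Sod2 and 21.3% for Nox1, where the median of all tested genes was 43.5%. The value of Nox1 includes primed and tolerant samples at the floor. The SD within groups was 0.55 on the log2 scale for Cybb, the largest of the 8, and 0.21 for Sod2, beside a median of 0.31 over all genes. The neutrophil list also differed between replicates: its main gene Mmp8 had 1639, 183 and 603 normalized counts in primed samples, and its part in these differences was not tested. The labels do not say what a shared number stands for.

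**Figure D5:**
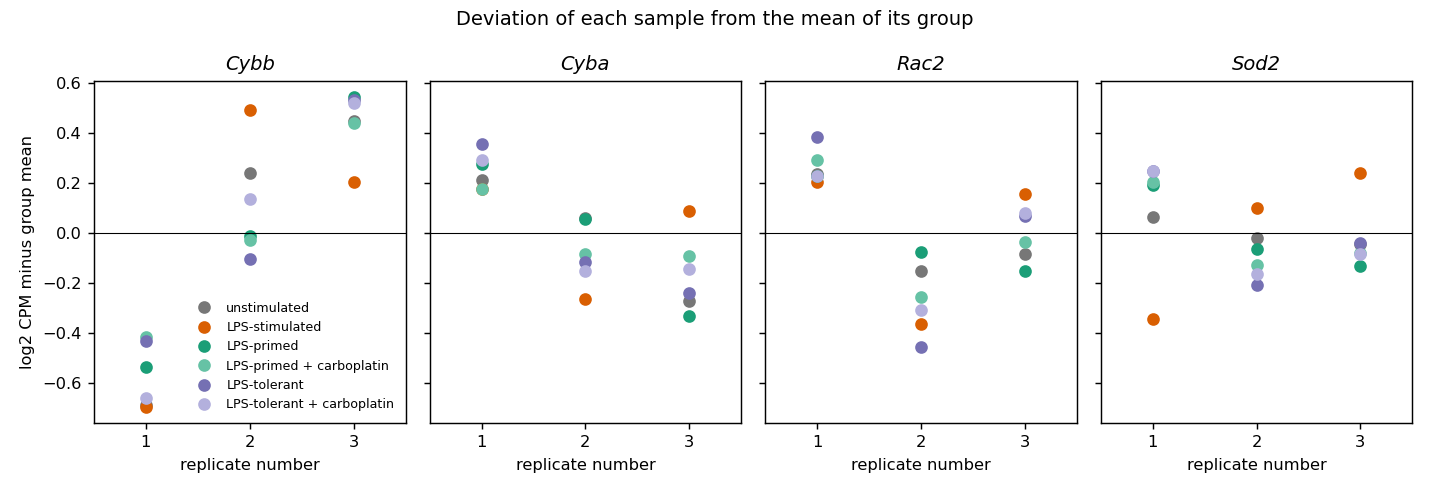
Log2 CPM of Cybb, Cyba, Rac2 and Sod2 in each sample minus the mean of its group, by replicate number and coloured by group. For Cybb all 6 samples of replicate 1 lie under their group mean, and for Cyba and Rac2 all 6 lie above it.

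The genes most like each member over the 18 samples, by Pearson correlation of log2 CPM, are given as a description, since the samples share groups and replicate numbers. For Sod2 these were Tarm1 (r = 0.994), Rnf149 (0.990) and Mmp14 (0.988). For Nox1, whose primed and tolerant samples were all at the floor, they were Icosl (0.968), Mamld1 (0.957) and Irf4 (0.956). For Cybb they were Rab6a (0.954), Tmed2 (0.953) and Dmxl2 (0.934). Ncf4 was most like Copg1 (0.971), Hcls1 (0.970) and Ctsz (0.963), Cyba most like Elob (0.944), Cope (0.942) and H13 (0.941), and Rac2 most like Plod3 (0.953), Prdx2 (0.930) and Praf2 (0.929). Ncf1 was most like Pon3 (0.911), Ide (0.891) and Tspan31 (0.857). Rac1 had the weakest likenesses, with Utp14b (0.844), Pip5k1c (0.829) and Itprid2 (0.826). Between members, r was 0.901 for Sod2 and Ncf4, 0.870 for Cyba and Ncf4, 0.829 for Cyba and Rac2 and 0.820 for Sod2 and Cybb, but 0.221 for Cybb and Cyba, which together form the membrane part.

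The list of oxidase relatives and chaperones held 12 genes, of which 5 were tested. Nrros, a protein of the endoplasmic reticulum that promotes the breakdown of gp91phox, had 2386, 2155 and 1926 normalized counts in unstimulated samples and 482, 246 and 369 after the single dose. It fell with a log2FC of -2.56 (SE 0.21, adjusted p = 3.49e-08), while Rac3 rose (0.88, adjusted p = 0.0376). After priming, at the higher LPS dose and for 24 h, Nrros was at 2135, 2432 and 1666, within reach of unstimulated cells (log2FC -0.05, adjusted p = 0.881). Cybc1, the chaperone of gp91phox and p22phox, was higher in primed cells (log2FC 0.59, adjusted p = 0.0232) and Rac3 was lower (0.50-fold, adjusted p = 0.0474). In tolerant against LPS-stimulated cells, Nrros (2.29, adjusted p = 2.94e-07) and Cybc1 (0.57, adjusted p = 0.0218) were higher and Rac3 was lower (-2.37, adjusted p = 8.77e-05). The response of Nrros differed between both exposures by a log2 of 2.34 (adjusted p = 1.04e-05). By edgeR, DESeq2 and limma-voom alike, the list had 0 calls for the LPS dose after priming and for carboplatin in both states. Of all genes, edgeR called 3.60% higher and 2.71% lower for that dose. For carboplatin it called 0% higher and 0.372% lower in primed cells, and 0.0177% and 0.407% in tolerant cells. With 5 tested genes, 0 calls lie near these shares. At an unadjusted p under 0.05 each tool had 1 gene, lower with carboplatin in primed cells. Its median log2FC was -0.05 for priming and -0.26 for the single dose, beside -0.02 and -0.09 over all genes.

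The list of oxidase activation (kinases, Rac exchange factors and Rac inhibitors) held 22 genes, of which 21 were tested. After the single dose 6 rose and 8 fell, where 24.3% of all genes were called higher and 26.9% lower, with a median log2FC of -0.40 beside -0.09 over all genes. After priming 2 rose and 2 fell, where 12.1% of all genes were called higher and 13.1% lower, with a median of 0.04 beside -0.02. Pla2g4a, the cytosolic phospholipase A2 that supplies arachidonic acid, rose in both (log2FC 2.86, adjusted p = 7.4e-06, and 2.21, adjusted p = 0.000218). Vav3 and Tiam1, exchange factors for Rac, rose after the single dose (1.97 and 1.20), and Arhgap25, which switches Rac off, fell the most (-2.82, adjusted p = 1.47e-07), followed by Rubcn (-1.58) and Pik3cd (-1.55). Arhgap25 had 840.2, 1087 and 872 normalized counts in unstimulated samples, 191, 108 and 101 after the single dose and 831, 979 and 722 in LPS-tolerant samples. After priming, Arhgdib, an inhibitor that holds Rac in the cytosol, rose (0.56, adjusted p = 0.00782) while Pak1 (-1.12, adjusted p = 0.000873) and Pik3c3 (-0.49, adjusted p = 0.0277) fell.

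In the same activation list, tolerant against primed cells had 0 higher (3 at an unadjusted p under 0.05, and 1 call by DESeq2) and 2 lower, Pik3cd (-1.70, adjusted p = 0.000375) and Mapk14 (-0.97, adjusted p = 0.0151). Of all genes, 3.60% were called higher and 2.71% lower in that comparison. Tolerant against LPS-stimulated cells had 4 higher, led by Arhgap25 (2.67), Pik3cg (1.37) and Prex1 (0.64), and 3 lower, Vav3 (-0.80), Prkcd (-0.57) and Dock2 (-0.43). Here 16.2% of all genes were called higher and 18.3% lower. The LPS responses differed for 6 genes, with higher values after priming for 4 of them, led by Arhgap25 (2.91), Rubcn (1.20) and Pik3cg (1.16), and lower ones for Pla2g4a (-2.52) and Vav3 (-1.18). Of all genes, 10.5% were called higher and 13.3% lower in this contrast.

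Dock2, an exchange factor for Rac in white blood cells, was the 1 gene of the 3 lists that carboplatin moved past edgeR's test, in both states. Of all genes, edgeR called 0.372% lower in primed and 0.407% lower in tolerant cells. DESeq2 called 3 genes of the activation list as lower with the drug in tolerant cells and 1 in primed cells. At an unadjusted p under 0.05 in edgeR, 5 genes of this list were lower and 0 higher with the drug in each state. The share of all genes at that limit was not determined, so this count cannot be set against it. Prkca, a kinase of this list, was too low for the expression filter and was not tested. It had 8, 9 and 5 counts in tolerant samples and 0, 2 and 0 with the drug. In primed samples it had 2, 7 and 10 counts, and 0, 2 and 0 with the drug. The study lists Prkca among the genes lowered by carboplatin in tolerant cells. The normalized counts of Dock2 were 2843, 3751 and 2889 in primed samples and 1222, 1421 and 1202 with the drug. In tolerant samples they were 2587, 2785 and 2355 without and 1078, 965 and 959 with it. The ranges did not overlap in either state. The log2FC was -1.30 (SE 0.15, adjusted p = 0.000197) in primed and -1.36 (SE 0.15, adjusted p = 0.000286) in tolerant cells. Dock2 spans 498 kb on chromosome 11 (34176815 to 34674798), where the median of 21770 protein-coding genes is 19.1 kb and the members span from 9.3 kb (Cyba) to 136 kb (Nox1). Tiam1 (357 kb), Prkcb (346 kb) and Vav3 (345 kb) of the same list had no call by edgeR for the drug. The part of gene span in these results was not tested.

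The list of superoxide and peroxide removal held 20 genes besides Sod2, of which 19 were tested. After priming 6 rose and 4 fell, where 12.1% of all genes were called higher and 13.1% lower, with a median log2FC of 0.21 beside -0.02 over all genes. Prdx5, a peroxiredoxin found in mitochondria and peroxisomes, went from 1925, 1825 and 1581 to 16725, 11380.3 and 14733 normalized counts (log2FC 3.01, adjusted p = 5.02e-08). Gsr, which regenerates glutathione (2.41, adjusted p = 1.33e-08), and Prdx6 (1.73, adjusted p = 0.00323) also rose, while Gpx3 (-2.19, adjusted p = 0.00205), Sod1 and Cat, the catalase gene (-0.55, adjusted p = 0.016), fell. After the single dose 5 rose and 3 fell, beside 24.3% and 26.9% of all genes, with a median of -0.20 beside -0.09. Txnrd1, a thioredoxin reductase, rose the most (2.68, adjusted p = 1.21e-09), followed by Prdx5 (1.61) and Srxn1 (1.09), and Cat fell (-0.90, adjusted p = 0.00018). Txnrd2 (-0.62, adjusted p = 0.0478) and Gpx4 (-0.49, adjusted p = 0.0469) were just inside the threshold of edgeR with overlapping groups, and DESeq2 called 1 gene of the list as lower in place of 3.

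Txnrd1 was the 1 gene of this list that the dose after priming moved past the tests of edgeR and limma-voom, while DESeq2 called 2 as higher and each tool had 2 at an unadjusted p under 0.05. It went from 1953, 1872 and 1981 normalized counts in primed to 3737, 3602 and 3785 in LPS-tolerant samples (log2FC 0.94, SE 0.15, adjusted p = 0.00139). Of all genes, edgeR called 3.60% higher and 2.71% lower in that comparison. The response of Txnrd1 was still smaller than the first one (difference -1.74, adjusted p = 1.47e-05), as were those of Prdx5 (-1.41, adjusted p = 0.00252) and Gsr (-0.78, adjusted p = 0.0158). A negative difference was called for 13.3% of all genes. In tolerant against LPS-stimulated cells 4 genes of the list were higher, led by Prdx6 (1.76), Gsr (1.62) and Prdx5 (1.60), and 2 were lower, Gpx3 (-2.08) and Txnrd1 (-0.96). Of all genes, 16.2% were called higher and 18.3% lower there. Carboplatin moved 0 of the 19 genes past edgeR's or limma-voom's test in either state, DESeq2 called 1 as higher in primed cells, and at an unadjusted p under 0.05 edgeR had 2 in primed and 1 in tolerant cells, all higher. The lists were read as edgeR calls and medians beside those of all genes, and no difference between a list and other genes was tested. Counts at an unadjusted p under 0.05 and calls by DESeq2 or limma-voom have no share of all genes beside them.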

How the data were processed

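RNA-Seq of mouse BMDMs was available as 1 table of counts per sample for 18 samples, grouped by their labels and titles. The deposited counts are raw read pairs per gene, made by the authors from stranded mRNA libraries with HISAT2 on GRCm39 and HTSeq, without normalization. Program versions, the annotation and the strand setting are not given in the sources used here. The 5 summary rows of each table, 41.5 to 46.9% of its total, were left out of library sizes and tests.

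Counts were scaled by TMM, and the quasi-likelihood test of edgeR 4.0.16 (R 4.3.3) was run on a single fit of all 18 samples after the tool's default filter (minimum count 10, minimum total 15). P values were adjusted by the Benjamini-Hochberg method over 11305 genes, and a gene was called at an adjusted p under 0.05. The log2FC has a prior count of 0.125, and its 95% interval uses the degrees of freedom of the test. Normalized counts were scaled to the mean library size. Groups with at most 3 counts in every library were set to that floor for bounds. Intervals on counts and floors cover counting error only. The script was tested on simulated counts. Positions and lengths are those of GENCODE vM39 on GRCm39.

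Named genes were all 8 members, the called genes of 3 pathway lists with the largest log2FC (up to 3 in each direction per comparison), and the 3 genes most like each member, without predicted-gene symbols. An item that this rule names is not reported here. The members and lists were chosen with earlier results of these data known. The motifs were chosen after the fits.

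Same-numbered samples were taken as pairs from the data: their deviations from the group means correlated at 0.183 to 0.574 over genes in the 6 comparisons of 2 groups, above 0.1 in every pair. Over all 15 pairs of groups the lowest value was 0.063, for replicate 3 of LPS100 and LPS10Control, which both enter the difference of the LPS responses. The blocked value stands where it changes a call, and beside some other calls and intervals. The labels name biological replicates, but not what they share, so p-values measure the spread between these samples. The chi-square per degree of freedom between libraries of a group was at least 17.2, so none was a repeat of another. Alternatives were DESeq2 1.42.0, limma-voom (limma 3.58.1), RLE or library-size scaling, no filter, at least 10 counts in every sample, only the groups compared, blocking on replicate number, other call limits, a prior count of 2, and leaving out each sample.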

Additional observations from a re-analysis of the deposited data

Results flagged for a closer look

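The LPS response with priming differed from that without it for 3 of the 8 genes, by a test of the difference itself in edgeR: Sod2 (adjusted p = 2.27e-09), Cybb (adjusted p = 0.0281) and Nox1 (adjusted p = 0.0317). Of all tested genes, 13.3% were called with a negative difference and 10.5% with a positive one. The call of Sod2 was kept in all 12 fits that left out 1 sample, that of Cybb was lost in 6 of them (adjusted p up to 0.0858) and with library size alone (adjusted p = 0.0605), and that of Nox1 was lost in 4 (adjusted p up to 0.113). With the replicate block in edgeR, the adjusted p was 5.62e-11 for Sod2, 3.94e-06 for Cybb and 0.0194 for Nox1. Sod2 had a log2FC of 4.69 without and 0.15 after priming, and Cybb had 1.64 and -0.10. For Nox1, 128, 111 and 84 counts after the single dose stood against 0 in all 3 LPS-tolerant samples. The primed samples had 0, 1 and 1 counts, so the Nox1 response after priming was between 2 groups at the floor.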

How the results depend on the processing

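Over 64 log2FC values of members and 1043 alternatives, 929 kept their direction and their side of the threshold, 20 lost and 14 gained a call, 0 called values changed sign and 80 uncalled ones did. At the study's limits, the members called were 3 in place of 5 (LPS-primed against unstimulated), 2 in place of 4 (LPS-stimulated against unstimulated) and 1 in place of 2 (LPS-tolerant against LPS-stimulated). The last comparison had 1 member with at least 10 counts in every sample, which leaves Nox1 untested, 1 in the fit of only the groups compared, where Ncf1 had an adjusted p of 0.094, and 5 with the replicate block. Leaving out 1 sample gave 4 to 6 members for LPS-primed against unstimulated, 4 to 5 for LPS-stimulated against unstimulated, 1 to 2 for LPS-tolerant against LPS-stimulated and 1 to 3 in place of 3 for the difference of the LPS responses. The block changed no call in the comparison of LPS-tolerant with LPS-primed cells or in those of carboplatin. Cyba in LPS-primed against unstimulated cells was also called by DESeq2 and without Unstim replicate 1 or LPS100 replicate 3. Beyond the effect of fewer genes or samples, the cause was not tested. Depth limits Nox1 most: at 3 counts or fewer, a level of 0 and a low level cannot be told apart.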
